A study of Mus musculus with 32 samples.

Results

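The genes described here are 10 genes of the integrated stress response and the unfolded protein response, taken by row name from the count tables of whole brain tissue and of sorted subdural CNS-associated macrophages (sdCAMs). They are Atf4, Ddit3, Trib3, Chac1, Sesn2, Asns, Hspa5, Xbp1, Herpud1 and Dnajb9, 10 of the 33280 genes in each table. All 10 passed the filter on low counts in both tables.

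The mice were wild type and no label gave their age. Control (CTL) mice received vehicle, and BLZ945 mice received 200 mg per kg body weight of BLZ945, an inhibitor of the CSF1 receptor that depletes brain macrophages, for 7 days. The macrophages had 8 weeks to repopulate before a thromboembolic occlusion of the middle cerebral artery, and both hemispheres were taken 1 day later. Every mouse had a stroke, so the ipsilateral (lesioned) hemisphere was compared with the contralateral hemisphere of the same animals. The main fit compared group means without a term for the mouse. A fit with the mouse as a replicate block, which uses the pairing, is given beside it. Mice A2, A3, A4 and B1 were CTL and mice C2, C3, C4 and D1 were BLZ945, and each gave tissue and sdCAMs from both hemispheres.

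All 16 tissue libraries and 14 sdCAM libraries were used. Total counts per library were 9288717 to 12781505 in tissue and 7397393 to 11081409 in sdCAMs. At these depths 3 counts corresponded to 0.236 to 0.32 CPM (reads on a gene after scaling to the size of the library) in tissue and 0.253 to 0.388 CPM in sdCAMs, covering counting error only. The ipsilateral sdCAM libraries of A3 and C2, labelled as degraded RNA, held 54055 and 55155 counts and were left out. For the tissue of A3 the sample labels and the count table disagree on which library is ipsilateral, and the labels were followed. The labels put all libraries in 1 batch.

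The integrated stress response is a shared branch of several stress pathways. Kinases that sense amino acid shortage, viral RNA, haem shortage or misfolded protein in the endoplasmic reticulum (ER) phosphorylate the translation factor eIF2, general translation falls and the transcription factor ATF4 is translated more. The unfolded protein response adds the ER sensors IRE1 and ATF6, which through spliced XBP1 and cleaved ATF6 raise ER chaperones and degradation factors. Much of this control acts on translation, splicing and cleavage, which gene counts do not measure. In the brain the response is best known from neurons under ischemia, and in secretory cells its ER arm sets folding capacity.

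Motifs of these pathways were searched on both strands of the promoter of each gene, defined as 250 bases before to 50 bases after the RefSeq start on GRCm38.p6, and all 10 genes matched 1 promoter each. The composite element TGATGNAA (CARE), bound by ATF4 with a C/EBP partner, was found in Trib3, Chac1, Asns and Herpud1 and in 3.97% of 32851 promoters. The ER stress element (ERSE), CCAAT and CCACG with 9 bases between, was found in Hspa5 and in 0.119% of promoters. Its variant (ERSE-II), ATTGG and CCACG with 1 base between, was found in Herpud1 and in 0.0365%. The element TGACGTGG, found in 0.676% of promoters, was in none of the 10, and the windows of Atf4, Ddit3, Sesn2, Xbp1 and Dnajb9 held none of the 4 motifs. The 250 bases before the start are shown for 4 genes on which the results turn, 5′ to 3′ on the gene strand with matches in capitals. These are Hspa5, which rose in ipsilateral sdCAMs, Herpud1, which holds elements of both pathways, and Chac1 and Asns, which were lower in sdCAMs than in tissue. The intervals are chr2:34771840-34772089 (+) for Hspa5, chr8:94386179-94386428 (+) for Herpud1, chr2:119350992-119351241 (+) for Chac1 and chr6:7693210-7693459 (-) for Asns.
Hspa5: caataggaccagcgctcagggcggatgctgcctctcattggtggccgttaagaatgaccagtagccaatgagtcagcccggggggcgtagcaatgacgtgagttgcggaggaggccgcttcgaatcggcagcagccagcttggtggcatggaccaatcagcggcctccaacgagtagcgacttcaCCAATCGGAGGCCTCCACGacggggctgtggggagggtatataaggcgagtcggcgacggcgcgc
Herpud1: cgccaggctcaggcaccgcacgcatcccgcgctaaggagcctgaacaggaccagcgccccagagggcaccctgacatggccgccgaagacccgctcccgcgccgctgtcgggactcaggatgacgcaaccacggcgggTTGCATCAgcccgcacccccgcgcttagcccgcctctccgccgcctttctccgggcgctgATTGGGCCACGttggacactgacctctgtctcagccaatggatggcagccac
Chac1: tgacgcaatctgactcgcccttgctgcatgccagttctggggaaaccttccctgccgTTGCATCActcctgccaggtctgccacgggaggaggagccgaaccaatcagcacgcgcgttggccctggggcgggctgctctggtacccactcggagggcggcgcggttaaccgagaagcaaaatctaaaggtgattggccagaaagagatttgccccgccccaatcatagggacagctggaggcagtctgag
Asns: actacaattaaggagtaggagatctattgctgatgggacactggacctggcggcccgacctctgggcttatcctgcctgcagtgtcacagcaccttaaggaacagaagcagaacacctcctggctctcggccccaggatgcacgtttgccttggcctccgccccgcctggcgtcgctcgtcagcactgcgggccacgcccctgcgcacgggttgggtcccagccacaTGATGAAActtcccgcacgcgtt
Positions count from the first base before the start as -1. The match in Hspa5 ran from -65 to -47, that in Asns from -23 to -16 and that in Chac1 from -193 to -186, while Herpud1 held the composite element at -112 to -105 and the ER stress element variant at -52 to -42. In Trib3 the composite element lay after the start, at 15 to 22. A match is a description of letters and does not show binding.

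**Figure D1:**
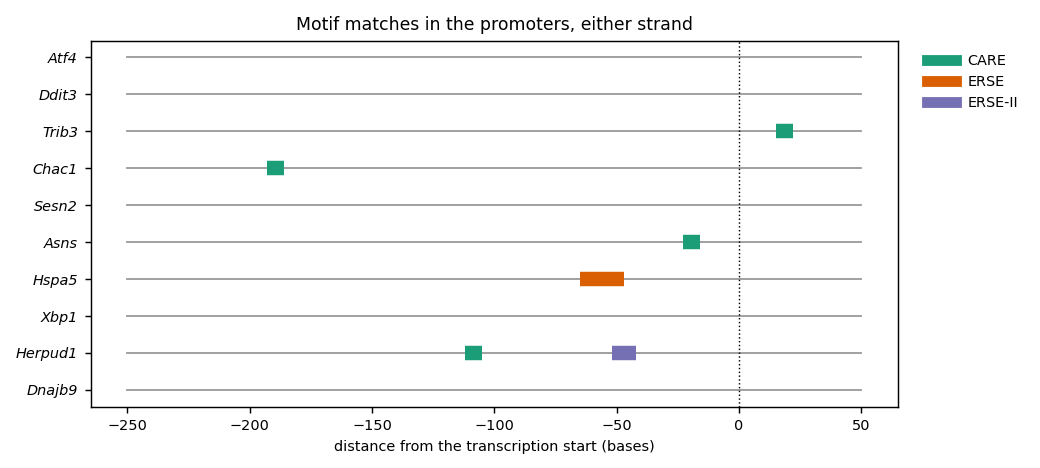
Position of each motif match in the 10 promoters, in bases from the transcription start (x axis), with 1 line per gene. Trib3, Chac1, Asns and Herpud1 carry the ATF4 composite element, Hspa5 carries the ER stress element and Herpud1 also carries its variant.

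The levels of the genes were first ordered within each compartment over the 8 contralateral libraries, as CPM per kb of exon. In tissue, the ER chaperone gene Hspa5 (BiP) had the highest median, 70.0 CPM per kb (range 58.7 to 94.4), followed by Atf4 with 56.6 and Asns, the asparagine synthetase gene, with 45.6. Herpud1, an ER membrane protein gene of the degradation machinery, had 34.2, Xbp1 had 28.5, Ddit3 (CHOP), a transcription factor gene linked to cell death, had 13.1 and Dnajb9, an ER co-chaperone gene, had 12.8. The lowest were Chac1, a glutathione-degrading enzyme gene, with 5.84, Sesn2, a nutrient-sensing sestrin gene, with 5.78, and Trib3, a pseudokinase gene that feeds back on ATF4, with 0.351. The ranges of neighbours in this order overlapped between Hspa5 and Atf4, Atf4 and Asns, Ddit3 and Dnajb9, and Chac1 and Sesn2.

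In contralateral sdCAMs the order was led by the ER genes. The median of Hspa5 was 493 CPM per kb (range 332.7 to 576), of Xbp1 135, of Herpud1 122, of Atf4 60.7 and of Dnajb9 41.4. Ddit3 had 19, Asns 8.37, Trib3 3.38, Sesn2 2.36 and Chac1 0.42 CPM per kb. Only Hspa5 and Xbp1, Herpud1 and Atf4, and Dnajb9 and Ddit3 were neighbours without overlap.

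**Figure D2:**
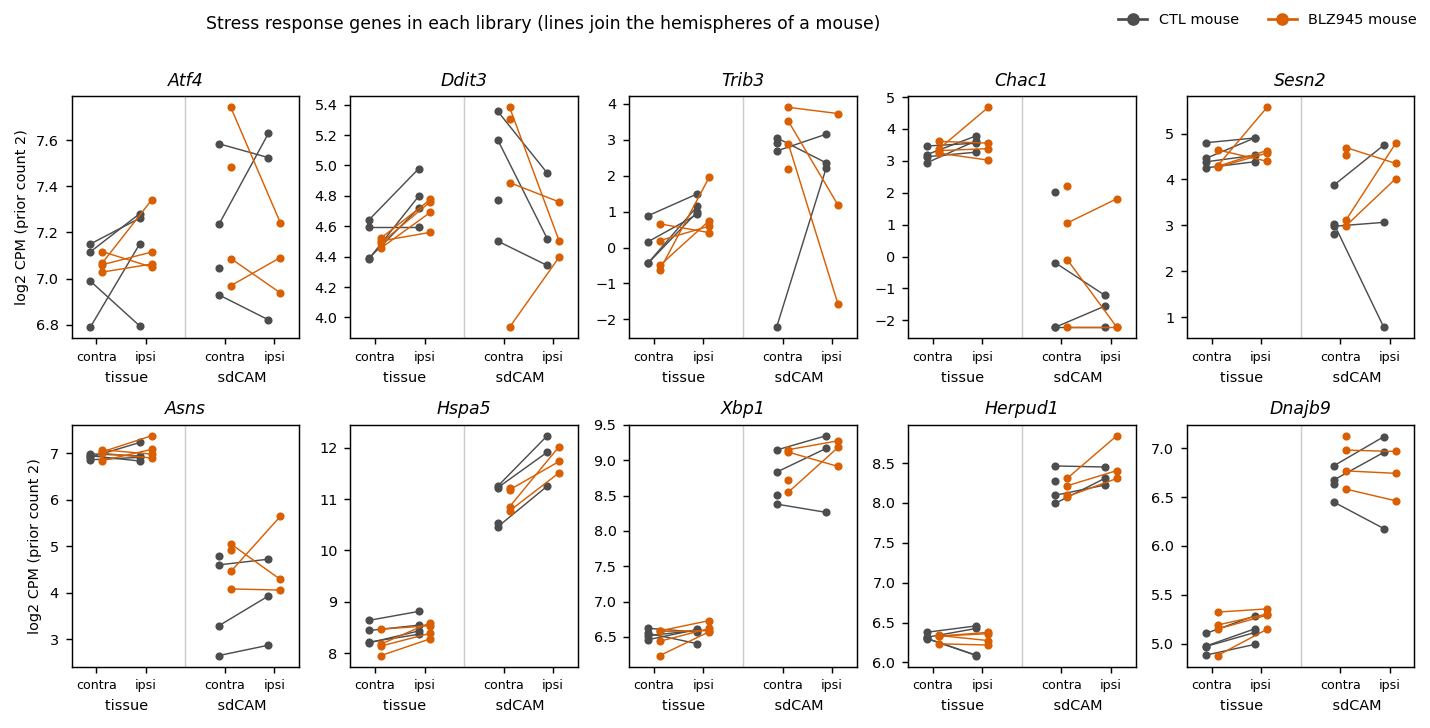
CPM of each gene in every library used (log scale, y axis), by compartment, treatment and hemisphere, with 1 point per library. In sdCAMs the 6 ipsilateral Hspa5 values, 2437 to 4791 CPM, lie above the 8 contralateral values, 1407 to 2436 CPM, while the other genes overlap between hemispheres. Separation was not counted over all genes.

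Tissue and sdCAMs were compared in the contralateral hemisphere in a fit of all 30 libraries. Of the 10 genes, 6 were higher in sdCAMs and 3 were lower (edgeR's quasi-likelihood test, Benjamini-Hochberg adjusted p under 0.05), where 33.2% of all genes tested were called higher and 39.4% lower. The 4 ER genes were higher: Hspa5 by 5.87-fold (95% CI 4.74 to 7.28, adjusted p = 3.03e-14), Xbp1 by 4.62-fold, Herpud1 by 3.40-fold and Dnajb9 by 3.004-fold. For each of these 4 genes all 8 sdCAM libraries lay above all 8 tissue libraries. How many of all genes were separated in this way was not counted, and 72.5% of all genes tested were called between the compartments.

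The ATF4-side genes were split. Trib3 was 7.35-fold higher in sdCAMs, with a wide interval (2.83 to 19.1, adjusted p = 0.000445) and 0 counts in 1 of the 8 sdCAM libraries. Its tissue libraries held only 5 to 37 counts each, and its values overlapped between the compartments. Ddit3 had a log2 difference of 0.36 (adjusted p = 0.0466), which with DESeq2 was 0.15 and no longer called, and which was called in 2 of the 8 fits that left out a mouse. Asns was lower in sdCAMs by a log2 difference of -2.71 (SE 0.28, adjusted p = 2.46e-09) and Chac1 by -2.89 (SE 0.79, adjusted p = 0.00200). For both genes all sdCAM libraries lay below all tissue libraries, again without a count over all genes. Sesn2 was lower by -0.93 (SE 0.35, adjusted p = 0.0195), a call lost when A3, C3 or C4 was left out. Atf4 itself had a log2 difference of 0.13 (95% CI -0.13 to 0.38, adjusted p = 0.378), which was -0.10 with DESeq2's scaling. That scaling moved the median of all genes from -0.15 to -0.37.

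The related lists went both ways as well, where 33.2% of all genes tested were called higher and 39.4% lower. With so many genes called, the counts of these short lists are a description only. Of 19 other ER chaperones and foldases, 16 were higher in sdCAMs and 1 lower (median 1.75 against -0.15 for all genes), led by the chaperone complex gene Sdf2l1 with 3.63, while Hyou1, a large ER chaperone gene, was lower with -3.07. Of 14 genes of ER-associated degradation, 9 were higher and 4 lower (median 0.49), with Edem1 at 3.22 and Edem2 at 3.02, both of which act on misfolded glycoproteins. Cytosolic tRNA synthetases, which charge tRNA with amino acids, were higher for 3 and lower for 6 of 12, and Yars1 (-1.10) and Wars1 (-1.07) fell furthest. Of 9 other ATF4-linked regulators tested, 5 were higher and 4 lower (median 1.84), led by Atf3, a stress transcription factor gene, with 6.81 and Cebpb, a partner of ATF4, with 5.27. Of 14 amino acid genes, 6 were higher and 4 lower (median 0.57), led by the transporter subunit gene Slc3a2 (2.34) and Mthfd2 (1.64), a mitochondrial folate enzyme gene. The eIF2 genes had 3 of 7 higher and 1 lower, led by Ppp1r15a (3.29) and Eif2s1 (1.89), and the death genes 4 of 5 higher, led by Pmaip1 (3.605) and Bcl2l11 (2.56). Of the 5 unfolded protein response transducers, 0 were higher and 3 lower in edgeR, with Mbtps2, a protease gene that cleaves ATF6, at -1.27 and Atf6 at -0.95, and DESeq2 gave the same counts. The list of 12 genes induced by cell isolation had 10 higher and 0 lower, with Zfp36 at 8.24 and Fos at 6.20. Cells were dissociated and sorted and tissue was not, so cell type and preparation cannot be told apart. The contralateral sdCAM libraries also held RNA of other cells. Summed markers were 649.7 to 1763 CPM for endothelial cells, 599.5 to 5354 CPM for oligodendrocytes and 24.6 to 37620 CPM for choroid plexus. Microglial markers summed to 6591 to 17570 CPM, against 1023 to 4211 CPM for border macrophage markers. The part of these cells in the compartment differences was not tested.

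In whole tissue, none of the 10 genes passed the threshold between hemispheres in the main fit, which ignores the pairing, although 9 of 10 had a higher estimate on the ipsilateral side. Trib3 and Ddit3 came nearest in that fit. With the mouse as a replicate block Hspa5, Trib3 and Ddit3 were called higher. The count was 0 of 10 with edgeR, 2 of 10 with DESeq2 and 3 of 10 with the mouse as a replicate block. Of all genes tested, 2.53% were called higher by edgeR, 3.37% by DESeq2 and 4.06% with the block. At an unadjusted p under 0.05 (edgeR, either direction), 5 of the 10 genes and 2705 of all 18968 genes tested passed. The median log2 fold change of the 10 genes was 0.18, and that of all genes tested was -0.01. In bulk tissue, fewer cells of a type and less RNA per cell cannot be told apart.

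Trib3 was the member with the largest estimate in tissue. In CTL mice A2, A3, A4 and B1 its contralateral values were 0.556, 0.934, 1.66 and 0.553 CPM and its ipsilateral values 2.05, 1.71, 2.64 and 1.81 CPM. In BLZ945 mice C2, C3, C4 and D1 they were 0.960, 0.524, 1.39 and 0.4655 CPM on the contralateral side and 1.33, 1.498, 1.15 and 3.72 CPM on the ipsilateral side. The CTL hemispheres did not overlap and the BLZ945 hemispheres did, without a count of such separation over all genes. In 7 of 8 mice the ipsilateral value was the higher, C4 being the exception. The log2 fold change was 1.17 (SE 0.32, adjusted p = 0.0605, edgeR), with the block 1.17 (adjusted p = 0.0292), and it was 0.81 (adjusted p = 0.229) without mouse D1, whose ipsilateral value was the highest. These values rest on 5 to 37 counts per library.

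Ddit3 differed less but more evenly. Its contralateral values in CTL mice were 20.7, 20.8, 24.01 and 24.8 CPM and its ipsilateral values 27.6, 26.1, 24.01 and 31.3 CPM. In BLZ945 mice they were 22.3, 21.8, 22.5 and 22.8 CPM contralaterally and 26.95, 25.7, 23.4 and 27.2 CPM ipsilaterally. The BLZ945 hemispheres did not overlap, again without a count over all genes, while in CTL mouse A4 the hemispheres were level. The log2 fold change was 0.24 (SE 0.07, adjusted p = 0.0635), and with the block 0.24 (adjusted p = 0.0369).

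The ER chaperone gene Hspa5 was higher on the ipsilateral side in 8 of 8 mice, by a log2 ratio of 0.07 to 0.42 within a mouse. Its contralateral values were 294.2, 399, 348.1 and 297.6 CPM in CTL and 289.9, 248.1, 282.2 and 353.8 CPM in BLZ945 mice. The ipsilateral values were 345.6, 449.9, 373.6 and 330.5 CPM in CTL and 386.6, 311.3, 335.0 and 371.5 CPM in BLZ945 mice. The hemispheres overlapped between mice, and the log2 fold change was 0.21 (SE 0.09, adjusted p = 0.277), against 0.21 (adjusted p = 0.00623) with the block.

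Among the remaining genes, Chac1 had 0.40 (adjusted p = 0.346) and Sesn2 0.35 (adjusted p = 0.287), and both were highest in the ipsilateral tissue of D1, with 25.4 CPM of Chac1 and 47.3 CPM of Sesn2. Without D1 their log2 fold changes were 0.17 (adjusted p = 0.660) and 0.18 (adjusted p = 0.567). The estimates were 0.14 for Dnajb9, 0.10 for Atf4, 0.08 for Xbp1, 0.08 for Asns and -0.03 for Herpud1. Dnajb9 was higher ipsilaterally in 8 of 8 mice, Sesn2 in 7, Atf4, Chac1 and Xbp1 in 6, and Asns and Herpud1 in 4.

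With the hemispheres of A3 as the count table names them, the log2 fold changes were 0.96 for Trib3 (adjusted p = 0.314), 0.16 for Ddit3 (adjusted p = 0.488) and 0.16 for Hspa5 (adjusted p = 0.600). Without A3 they were 1.22 (adjusted p = 0.131), 0.23 (adjusted p = 0.158) and 0.21 (adjusted p = 0.278). The exchange also took the number of all genes called from 578 to 1.

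**Figure D3:**
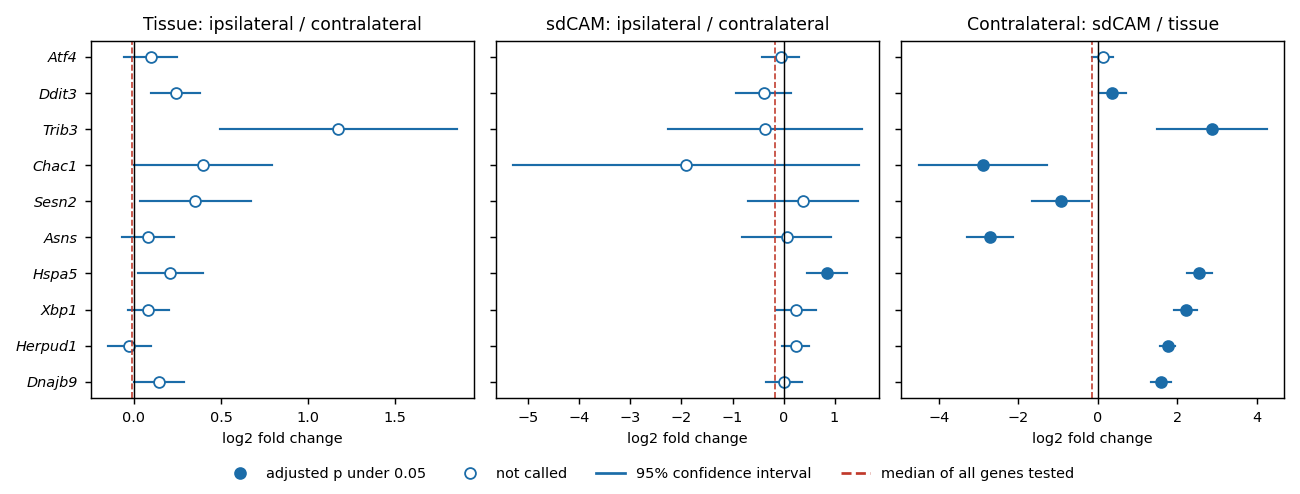
Log2 fold change of the ipsilateral against the contralateral hemisphere (mean of both treatments, x axis) for each gene in tissue and in sdCAMs, with bars for the 95% confidence interval. Values come from the main fit, without a term for the mouse. In tissue 9 of 10 estimates are above 0 and none was called in that fit, and in sdCAMs the estimate of Hspa5, 0.85, was the one called.

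The other genes of these pathways gave the context in tissue, where 2.53% of all genes tested were called higher and 0.517% lower. Of 10 other regulators linked to ATF4, 4 rose and 0 fell (median 0.72). Gdf15, a stress cytokine gene, went from 9 counts over the 8 contralateral libraries to 125 over the 8 ipsilateral libraries, a ratio of 13.5 (counting interval 6.87 to 30.1). Counting intervals pool the counts over libraries and leave out the spread between mice. Atf3 had a log2 fold change of 2.42 (SE 0.33, adjusted p = 0.000345). Of 7 eIF2 kinase and phosphatase genes, 2 rose (median 0.19): Ppp1r15a (GADD34), the stress-induced phosphatase subunit, by 0.64 (adjusted p = 0.00903) and Eif2ak2 (PKR), the kinase that senses viral RNA, by 0.61 (adjusted p = 0.0454).

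Of 14 amino acid enzymes and transporters, 3 rose (median 0.18), with Slc7a11, the cystine transporter, at 0.64 and Shmt2, a mitochondrial serine enzyme, at 0.38. The tRNA synthetases had 2 of 12 called, Tars1 (0.26) and Eprs1 (0.19), and 12 of 12 above 0 (median 0.10). On the ER side, 0 of 5 transducers (median 0.00, 0 at an unadjusted p under 0.05), 0 of 19 ER chaperones (median 0.06, 2 at an unadjusted p under 0.05, 1 with DESeq2) and 1 of 14 degradation genes, Edem1 (0.33), were called. Of 5 death genes linked to CHOP, 1 rose, Pmaip1 (NOXA, 0.78).

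Of the 12 genes listed as induced by cell isolation, 4 rose in tissue (median 0.85), led by the heat shock genes Hspa1b (2.57) and Hspa1a (2.49). Tissue was not dissociated or sorted, so the name of this list is only a label there. With A3 as the count table names it, 0 genes of any of these lists were called in tissue. Almost no gene tested was called at all under that exchange, as given above. With the block, 5 regulators, 3 eIF2 genes, 5 amino acid genes (and 1 lower), 3 tRNA synthetases, 1 ER chaperone and 7 isolation genes were called higher. The block called 4.06% of all genes tested higher and 3.02% lower. With both the block and the exchange the counts in that order were 3, 2, 1, 0, 0 and 4. The calls over all genes under that setting are given below. Of the markers of other cells, 1 astrocyte, 1 monocyte, 1 neutrophil and 2 endothelial genes rose and 2 microglial genes fell, where 2.53% of all genes tested were called higher and 0.517% lower. The summed endothelial level was 184.4 to 244.9 CPM contralaterally and 201 to 297.3 CPM ipsilaterally. Their part in these results was not tested.

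In sdCAMs, Hspa5 rose on the ipsilateral side and was the only one of the 10 genes called, where 4.98% of all genes tested were called higher and 11.2% lower. In CTL mice A2, A3, A4 and B1 its contralateral values were 2436, 1481, 1407 and 2383 CPM, and the ipsilateral values of A2, A4 and B1 were 4791, 2437 and 3843 CPM. In BLZ945 mice C2, C3, C4 and D1 the contralateral values were 2362, 1752, 1842 and 2327 CPM, and the ipsilateral values of C3, C4 and D1 were 2910, 4163 and 3393 CPM. Every ipsilateral library lay above every contralateral one, though the lowest ipsilateral value, that of A4, was close to the highest contralateral value, that of A2. Separation of this kind was not counted over all genes, of which 16.2% were called between these hemispheres. Hspa5 was 1.797-fold higher (95% CI 1.37 to 2.36, log2 fold change 0.85, SE 0.18, adjusted p = 0.00624), and higher in 6 of 6 mice with both hemispheres.

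The call held in each fit that left out a mouse, with log2 fold changes of 0.75 to 0.90 and adjusted p of 0.00634 to 0.0340, and with the block (0.82, adjusted p = 0.00675, with 3.5% of all genes called higher). It was lost when both degraded libraries were added, with 0.48 (adjusted p = 0.784).

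The sorted libraries of the hemispheres also differed in RNA of other cell types. Of all genes tested, 11.2% were called lower on the ipsilateral side and 4.98% higher. Summed endothelial markers were 649.7 to 1763 CPM in contralateral and 29.01 to 120.9 CPM in ipsilateral libraries, and 5 of 5 fell. Oligodendrocyte markers were 599.5 to 5354 against 90.8 to 658.7 CPM (5 of 5 fell), astrocyte markers 120.7 to 869.9 against 69.8 to 235.3 CPM (4 of 5 fell) and choroid plexus markers 24.6 to 37620 against 0.502 to 1511 CPM (3 of 5 fell). Red blood cell markers were 73.1 to 1160 against 7.11 to 150 CPM (2 of 3 tested fell) and neuronal markers 10.3 to 85.9 against 0 to 25.4 CPM (1 of 5 fell). Of 5 monocyte markers 0 were called for the mean of both treatments with edgeR (0 at an unadjusted p under 0.05). Summed, they were 93.02 to 159.6 CPM contralaterally and 241.9 to 343.6 CPM ipsilaterally in CTL libraries, without overlap, and 167.1 to 852.3 against 200.6 to 377.4 CPM in BLZ945 libraries. Neutrophil markers (252.9 to 2982 against 309.6 to 931.6 CPM, 0 of 6 called) and B and plasma cell markers (9.62 to 166.6 against 17.1 to 83.5 CPM, 1 of 5 fell) overlapped.

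Border macrophage markers, the genes that mark sdCAMs, went the other way, with 1023 to 4211 CPM contralaterally and 3017 to 6198 CPM ipsilaterally (7 of 7 rose). Microglial markers were present at 6591 to 17570 CPM contralaterally and 9155 to 25500 CPM ipsilaterally (1 of 6 rose), where 4.98% of all genes tested were called higher. The part of these cells in the sdCAM results was not tested, and it applies to each gene and list given for sdCAMs.

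No other member was called in sdCAMs. Xbp1 and Herpud1 had log2 fold changes of 0.24 (adjusted p = 0.416) and 0.24 (adjusted p = 0.210), and Herpud1 was higher ipsilaterally in 5 of 6 mice. Dnajb9 had 0.01 and Atf4 -0.05, with intervals of -0.34 to 0.35 and -0.42 to 0.31. Ddit3 had -0.39 (95% CI -0.94 to 0.16, adjusted p = 0.326) and was lower ipsilaterally in 5 of 6 mice, with 15.1 to 41.5 CPM in contralateral and 20.1 to 30.7 CPM in ipsilateral libraries.

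The low genes varied widely between sdCAM libraries. Trib3 was 0 to 14.7 CPM contralaterally and 0.122 to 13.1 CPM ipsilaterally, with 3 counts or fewer in 2 of 14 libraries, and had -0.36 (SE 0.89). Chac1 had 3 counts or fewer in 8 of 14 libraries and 0 in 6 of these, and its estimate was -1.91 (SE 1.59), or -5.08 without C3 and -0.74 without A3. Sesn2 had 0.39 (SE 0.51) and Asns 0.06 (SE 0.41). The median of the 10 genes was 0.03, and that of all genes tested was -0.16, or -0.24 with DESeq2's size factors.

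Other ER genes rose as well, where 4.98% of all genes tested were called higher. Of 19 ER chaperones and foldases, 11 rose and 0 fell, and 17 had a positive estimate (median 0.58). Sdf2l1 had 0.83 (SE 0.15, adjusted p = 0.00175) and did not overlap between hemispheres, again without a count over all genes. It was 173.5 to 198.8 CPM in CTL contralateral and 226.8 to 396.3 CPM in CTL ipsilateral libraries, and 161.6 to 195.8 against 270.3 to 426.7 CPM in BLZ945 libraries. Creld2, a disulfide isomerase-like gene, had 0.81 (adjusted p = 0.0366, and 0.0604 with the block).

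Of the degradation genes, 5 of 14 rose (median 0.38), led by Edem1 (1.13, SE 0.20, adjusted p = 0.00170) and Sel1l (0.74), an adaptor of the ubiquitin ligase of this pathway. Of the transducers, 2 of 5 rose (median 0.58), Atf6 (0.90) and Atf6b (0.58, adjusted p = 0.108 with the block). The ER-resident eIF2 kinase gene Eif2ak3 (PERK) had 0.99 (adjusted p = 0.0223) and was the only 1 of 7 eIF2 genes called.

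The tRNA synthetases, which are known ATF4 targets in part, had 9 of 12 called higher, 0 lower and 12 of 12 above 0 (median 0.64). Iars1 had 1.09 (SE 0.20, adjusted p = 0.00180) and Lars1 0.95. Of 9 other regulators tested, 0 rose with edgeR (0 at an unadjusted p under 0.05, 0 with DESeq2) and 1 fell (median -0.40), where 11.2% of all genes were called lower. The gene that fell was Vldlr with -6.91 (SE 1.42), a lipoprotein receptor gene whose adjusted p was 0.0595 with the block.

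Of 14 amino acid genes, 2 rose and 1 fell (median -0.08), where 4.98% of all genes tested were called higher and 11.2% lower. Aldh18a1, a proline synthesis gene, had 1.26 (adjusted p = 0.111 with the block). Cth, a cysteine synthesis gene, had 0 counts over the 6 ipsilateral and 362 over the 8 contralateral libraries, at least 77.6-fold lower against a floor of 3 counts over the group (adjusted p = 0.0998 with the block). Among the death genes 0 rose and 1 fell, Tnfrsf10b, with 8 against 153 counts, 12.3-fold lower (counting interval 6.08 to 28.98, adjusted p = 0.277 with the block). Of the isolation genes, 0 rose and 2 fell, Hspa1b (-2.18) and Hspa1a (-1.57).

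These list counts depended on the libraries used. With a mouse left out, 8 to 11 ER chaperones, 5 to 9 tRNA synthetases and 3 to 5 degradation genes were called higher. With the block the counts were 9, 7 and 3, and with both degraded libraries added 0 in each list. The calls over all genes also moved, from 4.98% called higher in the main fit to 3.5% with the block. Those under the other settings are given below with the dependence on the processing. The block also took the calls among amino acid genes, other regulators and death genes to 0.

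**Figure D4:**
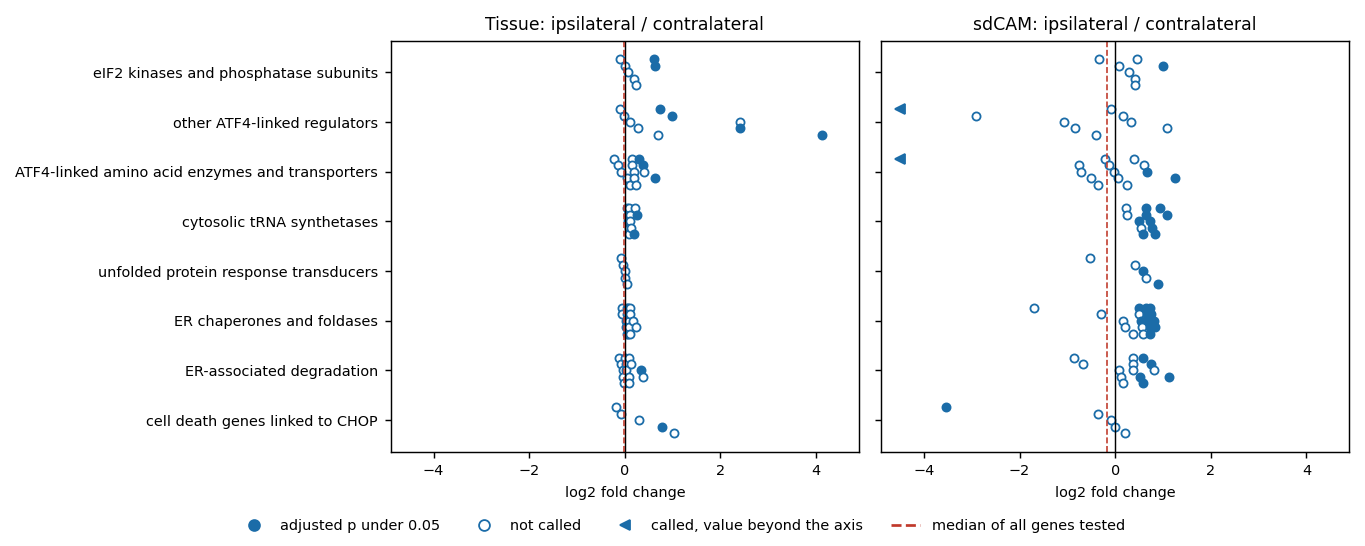
Log2 fold change of the ipsilateral against the contralateral hemisphere (mean of both treatments, x axis) for each gene of each list (y axis), in tissue and in sdCAMs. The dashed line marks the median of all genes tested, list medians are not drawn, and arrowheads mark genes whose value lies beyond the axis. The medians of ER chaperones (0.58) and tRNA synthetases (0.64) in sdCAMs lie above the median of all genes (-0.16), while in tissue the other ATF4-linked regulators have the highest median of the pathway lists (0.72).

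The stroke responses were then taken by treatment, to ask whether repopulated mice differed. In CTL tissue 0 of 10 genes were called with edgeR or DESeq2, where 0.485% of all genes were called higher (0.828% with DESeq2). In BLZ945 tissue 0 of 10 were called with either, where 1.26% were (2.09% with DESeq2). At an unadjusted p under 0.05 (edgeR, either direction), 2 of 10 genes passed in CTL and 3 of 10 in BLZ945 tissue. Of all 18968 genes tested, 1182 and 2057 did. Trib3 had log2 fold changes of 1.16 in CTL and 1.18 in BLZ945 tissue. The BLZ945 value was 0.46 (adjusted p = 0.832) without mouse D1, and the CTL value ran from 0.98 to 1.44 with a mouse left out and was 0.74 with A3 as the table names it. Ddit3 had 0.27 in CTL and 0.20 in BLZ945 tissue, and Hspa5 0.17 and 0.25. With the block, Hspa5 was called in BLZ945 tissue (0.26, adjusted p = 0.0272, with 2.69% of all genes called higher).

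Within single treatments few genes of the lists were called in tissue. Of all genes tested, edgeR called 0.485% higher in CTL and 1.26% higher in BLZ945 tissue. In CTL tissue the count was 0 in every pathway list and among isolation genes with edgeR. At an unadjusted p under 0.05 the regulators had 4 genes higher, the isolation genes 3 and each other pathway list 0 to 2. In either direction 1182 of all 18968 genes tested passed that cutoff. DESeq2 called 2 regulators and 2 isolation genes there, where it called 0.828% of all genes higher. In BLZ945 tissue 4 of the other regulators were called higher, with Atf3 at 2.90 and Gdf15 going from 1 count over 4 contralateral libraries to 66 over 4 ipsilateral libraries (ratio 66.6, counting interval 11.5 to 2669). Also called there were 1 tRNA synthetase, Tars1 (0.36), and 3 isolation genes, led by Hspa1b (2.96) and Hspa1a (2.58).

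In sdCAMs Hspa5 had 0.94 (adjusted p = 0.0676, edgeR) in CTL and 0.75 (adjusted p = 0.105, edgeR) in BLZ945 mice. Thus edgeR called 0 of 10 genes in each, where 0.426% and 1.2% of all genes were called higher. At an unadjusted p under 0.05 in edgeR, 1 of 10 genes passed in each, against 3346 and 4088 of all 18297 genes tested. DESeq2 called 1 of 10 in CTL, Hspa5, and 0 in BLZ945 mice, where it called 1.73% and 2.72% of all genes higher. The difference between treatments for Hspa5 was -0.19 (95% CI -0.97 to 0.60) in sdCAMs and 0.09 (95% CI -0.29 to 0.46) in tissue.

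In sdCAMs single genes of the ER chaperone, degradation and tRNA synthetase lists were called within each treatment. Of all genes tested, 0.426% were called higher in CTL mice. In BLZ945 mice 1.2% were called higher and 4.41% lower. In CTL mice 3 of 19 ER chaperones rose, led by Pdia3 (0.78) and Pdia4 (0.76), both disulfide isomerase genes, with 3 of 12 tRNA synthetases, led by Iars1 (1.14) and Eprs1 (1.05), and Edem1 (1.12). In BLZ945 mice 5 of 19 ER chaperones rose, led by Sdf2l1 (1.03) and Calr (0.82), a lectin chaperone gene, with 3 of 14 degradation genes, led by Edem1 (1.14) and Sel1l (1.01), and Iars1 (1.05). Vldlr fell there, from 625 counts over 4 contralateral libraries to 1 over 3 ipsilateral libraries, a ratio of 434.6 with a counting interval of 77.7 to 17190. A single library held 364 of the 625 counts, and the interval leaves out this spread between mice. The difference between treatments called 0 genes of any of these lists with edgeR or DESeq2, in tissue or in sdCAMs. Over all genes, edgeR called 0 in both, while DESeq2 called 0 in tissue and 12 higher and 36 lower in sdCAMs. At an unadjusted p under 0.05 each list had 0 or 1 gene in a direction. Of all genes tested, 386 of 18968 in tissue and 912 of 18297 in sdCAMs passed that cutoff in edgeR.

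Between the treatments themselves, 0 of the 10 genes were called in any of 6 comparisons with edgeR or DESeq2, where 0% of all genes were called by edgeR. None of the 10 had an unadjusted p under 0.05. Of all genes tested, 386 to 858 of 18968 in tissue and 912 to 1133 of 18297 in sdCAMs passed that cutoff in edgeR. For the difference of the stroke responses the estimates ran from -0.07 to 0.27 in tissue and from -1.03 to 2.48 in sdCAMs. For BLZ945 against CTL they ran from -0.09 to 0.23 in ipsilateral and from -0.18 to 0.20 in contralateral tissue. In sdCAMs they ran from -0.27 to 3.11 ipsilaterally and from -0.04 to 0.81 contralaterally, and the largest of these, ipsilaterally and for the difference, were those of Chac1. Its estimates turned without mouse C3, to -3.26 ipsilaterally and -3.86 for the difference. With the block the sdCAM difference was -1.32 for Chac1 (in place of 2.48), -3.80 for Trib3 (in place of -1.03) and 1.18 for Sesn2 (in place of -0.01), none of them called. In sdCAMs the 95% CI of the difference of the responses was -4.81 to 2.74 for Trib3, -1.14 to 1.03 for Ddit3 and -2.12 to 2.10 for Sesn2, and differences as large as the Hspa5 response lay within these intervals.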

How the data were processed

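Bulk RNA-seq was made from whole tissue and sorted sdCAMs of both hemispheres of 8 mice. Per the submitters' processing notes, reads were handled with bcl2fastq 2.20, STAR 2.7.11a, featureCounts 2.0.8 and DESeq2 1.46.0. The authors deposited raw counts per gene in 1 table for tissue and 1 for sdCAMs, without normalization. More than one annotation is named for the bulk data, so genes carry no coordinates, and promoters come from RefSeq on GRCm38.p6. The use of strand in counting is not given in the sources used here.

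Genes with a summed count under 8 (tissue), 7 (sdCAMs) or 15 (all 30 libraries) were removed, which left 18968, 18297 and 19389. Groups of treatment and hemisphere were fitted with edgeR 4.0.16 in R 4.3.3 (quasi-likelihood test, two-sided, TMM), with Benjamini-Hochberg adjustment over all genes tested and a threshold of 0.05. CPM were scaled by TMM within each table separately, so levels in tissue and sdCAMs were not put on 1 scale outside the joint fit. The joint fit treats both compartments of a mouse as separate libraries. Levels per kb used the summed exon length of each gene. The fits were tested on simulated data.

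The members and lists were chosen with earlier results of these data known. The 10 members were named in every comparison, and of each list up to 2 called genes per comparison with the largest change. Each marker list was given by its counts and summed level. Overlap between groups was checked for the named genes and not counted over all genes. Replicates are mice, and hemispheres of a mouse pair the samples because they come from the same animal: deviations from the group means correlated within mice with r of 0.214 to 0.645 in tissue (8 mice) and 0.0454 to 0.191 in sdCAMs (6 mice), across genes. Alternatives were DESeq2 1.42.0, its size factors, other filters, a log2 fold threshold of 0.59, the mouse as a replicate block, A3 as named in the table, all 16 sdCAM libraries and each mouse left out.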

Additional observations from a re-analysis of the deposited data

Results flagged for a closer look

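Among 60 groups of 4 libraries tested for a library apart from the others, 6 held one, where chance flags about 1 in 20. In BLZ945 ipsilateral tissue, mouse D1 had 47.3 CPM of Sesn2 against 20.9 to 24.6 CPM in the other mice, and 3.72 CPM of Trib3 against 1.15 to 1.498 CPM. In BLZ945 contralateral tissue, mouse C3 had 24.8 CPM of Sesn2 against 19.1 to 19.5 CPM, and 75.1 CPM of Herpud1 against 80.3 to 80.8 CPM. In CTL contralateral sdCAMs, mouse B1 had 14.5 CPM of Sesn2 against 6.77 to 7.90 CPM, and mouse A3 had 3.87 CPM of Chac1 (40 counts) against 0 to 0.656 CPM. Sesn2 accounted for 3 of the 6.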

How the results depend on the processing

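With the mouse as a replicate block, 3 of the 10 genes were called in tissue (mean of both treatments) in place of 0, and 1 in BLZ945 tissue in place of 0. Other alternatives for the tissue mean called 2 (DESeq2) and 1 (edgeR's filterByExpr) of the 10, and 0 to 2 with a mouse left out. In sdCAMs all 16 libraries called 0 in place of 1 for the mean, and in CTL sdCAMs DESeq2 and no filter each called 1 in place of 0.

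Herpud1 in tissue reversed to 0.025 with A3 as the table names it and 0.024 with the block added, and ran from -0.052 to 0.0037 with a mouse left out. In sdCAMs, DESeq2 and its size factors gave -0.034 for Asns and -0.076 for Dnajb9, filterByExpr gave -0.0025 for Dnajb9, and all 16 libraries gave -0.030 for Asns, -0.081 for Xbp1, -0.074 for Herpud1, -0.23 for Dnajb9 and 0.74 for Tnfrsf10b. With a mouse left out, Atf4 ran from -0.13 to 0.0079, Sesn2 from -0.12 to 0.62, Asns from -0.31 to 0.24 and Dnajb9 from -0.051 to 0.093. Atf4 between compartments was -0.096 and -0.095 with DESeq2 and with its size factors. None of these was past the threshold except Tnfrsf10b before both libraries were added.

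Genes called over the whole tissue table, 578 for the mean, were 875 with DESeq2, 381 with a fold threshold, 1344 with the block, 1 with A3 as the table names it, 253 with both, and 319 to 564 with a mouse left out. CTL tissue had 93, against 162, 250 (block), 0 and 0 (A3, with and without the block) and 24 to 96. BLZ945 tissue had 258, against 470, 785 (block), 6 (A3) and 81 to 261. BLZ945 against CTL had 0 in tissue, against 1 with DESeq2 ipsilaterally, and 0 to 3 ipsilaterally and 0 to 4 contralaterally with a mouse left out.

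In sdCAMs the mean had 2966 genes, against 1931 (block), 1186 (all 16) and 1855 to 2612. CTL had 510, against 1810 (DESeq2), 293 (block), 205 (all 16) and 139 to 612. BLZ945 had 1027, against 2476 (DESeq2), 428 (all 16) and 270 to 1220. The difference of the responses had 0, against 48 with DESeq2 and 0 to 1 with a mouse left out. BLZ945 against CTL had 0, against 123 (DESeq2), 1 (no filter) and 0 to 7 ipsilaterally and 39 (DESeq2) contralaterally. The causes were not tested.

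Counts were few for Trib3 in tissue (5 to 37 per library) and for Chac1 in sdCAMs (0 to 40 per library).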

Other observations

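The genes whose profile over the libraries was most like that of a member were found for the member with the largest stroke response estimate in each compartment, by the root mean square difference between centred log2 CPM. In tissue (16 libraries, 14316 genes compared) these were Lpl (0.434), Myc (0.452) and Gadd45b (0.462) for Trib3, where the median over all genes was 0.759. In sdCAMs (14 libraries, 13828 genes compared) they were Adgrb3 (1.05), Sez6 (1.15) and Stc1 (1.18) for Chac1, where the median was 1.85, and Chac1 had 3 counts or fewer in 8 of these libraries. The libraries of a profile share their mice and their scaling.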
